A study of Mus musculus with 39 samples.

Results

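Glucocorticoid receptor (GR) sites that 7438 mouse mammary cells kept, going by list names, when estradiol was added to dexamethasone, that held no estrogen receptor (ER) site and that were missing from 7438 cells with Afos numbered 1409. They were chosen from the 12084 GR sites called in 7438 cells with dexamethasone. A site was taken if it shared at least 1 bp with a site of the 7438 GR list named for both hormones, none with the 7438 ER lists named for estradiol or for both hormones, and none with either of the 2 dexamethasone GR lists of 7438 Afos. The 24 lists hold 110608 rows in all. Since called sites chose the 1409, their presence or absence in those lists and their strength in the 2 GR lists are given as description, with no test.

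Sites were mapped by ChIP-seq, in which DNA bound by a receptor is pulled down from sonicated nuclei with antibodies and sequenced. The cells make GFP-GR and Cherry-ER from tetracycline-regulated promoters and were kept without tetracycline for 24 h, and 7438 Afos cells make Afos from such a promoter as well. Each line was untreated or given 100 nM dexamethasone, 100 nM estradiol or both for 30 min. For GR and for ER, the labels give 2 libraries per treatment in each line. 7438 Afos gave 2 lists per treatment and 7438 gave 1, so no list within 7438 has a replicate. Nothing in the labels says whether the 2 Afos libraries of a treatment came from separate cultures, so p-values measure only the spread between libraries. Fusion receptors made from a regulated promoter need not be at natural levels, and no expression data were used to check the identity of the cells.

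GR and ER are nuclear receptors that bind DNA after their hormone enters the cell, GR with glucocorticoids such as dexamethasone and ER with estrogens such as estradiol. AP-1, a dimer of Fos and Jun proteins, is known in mouse mammary cells to occupy many GR sites and to keep their chromatin open. Afos is a Fos derivative with an acidic extension that pairs with Jun and keeps AP-1 off DNA.

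In 7438, the names of 4 lists go against the labels of their libraries. The GR and ER lists named for both hormones belong to libraries labelled untreated, and those named untreated to libraries labelled as given dexamethasone and estradiol. The GR and ER lists named for both hormones hold 9503 and 11982 sites, and those named untreated hold 143 and 373. Choosing by the labels left 16 sites instead of 1409, of which 31.2% lay in at least 1 GR list of 7438 Afos with dexamethasone plus estradiol. The share was 27.0% for the 1409, against 26.2% for all 4777 dexamethasone GR sites of 7438 that were missing from both Afos dexamethasone lists, a choice that uses neither reading.

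The choice ran in 3 steps. Of the 12084 dexamethasone GR sites, 7699 (63.7%) were also in the GR list named for both hormones, while 9.85% met an ER site of the estradiol list and 24.9% one of the list named for both hormones. In all, 4748 (39.3%) were in the GR list named for both hormones and met neither. Of those 4748, 1409 were in neither Afos dexamethasone list, which is 29.7% (95% exact binomial interval 28.4 to 31.0%, which covers counting error only) and 11.7% of all dexamethasone GR sites. The Afos dexamethasone lists held 59.8% and 40.3% of all 12084. A further 950 were in 1 of the 2 Afos dexamethasone lists and 2389 (50.3%) in both, and these 3339 are called retained sites here. The Afos dexamethasone lists differ in length, with 8873 sites in replicate 1 and 5136 in replicate 2. With replicate 1 left out the number of absent sites was 2318. The Afos lists also reach lower tag densities and z-scores than the 7438 lists. With the lower limits of 7438 put on the Afos GR lists, the number of absent sites was 1926. Depth is unknown, and absence from a list says that no site was called, not that no receptor was bound.

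The strongest absent sites, by mean rank in the 2 GR lists of 7438, are given first with their deposited values. Highest tag density, the authors' signal at a site, was 94.2 with dexamethasone and 45.4 in the list named for both hormones at chr11:3053824-3053974 (mm9, as the list gives it). No GR site was called there in any of the 8 GR lists of 7438 Afos, and the nearest Afos dexamethasone site lay 13327 bp away. Densities of the next sites are again in the order dexamethasone list and list named for both hormones. At chr3:60435238-60435388 they were 67.6 and 41.3, at chr6:115265945-115266095 they were 58.5 and 39.7, and at chr8:113327024-113327174 they were 53.8 and 39.8. These 3 sites, too, were in no other list. The site on chromosome 6 had an Afos dexamethasone site 689 bp away, so that region was not free of GR calls.

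Other strong absent sites were called in 7438 Afos when estradiol accompanied dexamethasone. At chr3:145912169-145912319 tag density was 12.5 and 16.5 in the 2 Afos lists with both hormones. In 7438 it was 50.5 with dexamethasone and 37.3 in the list named for both hormones. At chr1:181744935-181745085 the Afos values were 12.5 and 19.6, beside 45.6 and 32.1 in the same 2 lists of 7438. Tag densities of the 2 cell lines are printed as deposited and were not compared, because their scaling is not stated in the sources used here. Of the 10 strongest absent sites, 6 were in neither Afos list with both hormones, as were 73.0% of all 1409. At least 1 of these 2 lists held 68.3% of all dexamethasone GR sites.

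Absent sites were of middling strength in the dexamethasone list and weak in the list named for both hormones. Strength is given as the percentile of highest tag density within a list, where 100 is the strongest site. In the dexamethasone list the absent sites had a median percentile of 44.2, with quartiles of 30.4 and 56.6 and a highest value of 93.2, against a median of 72.7 and quartiles of 59.2 and 84.1 for retained sites. Retained sites in only 1 Afos dexamethasone list had a median of 59.7 and those in both lists 78.0. Absent sites that met an ER site had a median near that of absent sites without ER, at 41.4. It was 28.0 for all 4777 dexamethasone GR sites missing from both Afos dexamethasone lists. As tag density, the absent sites had a median of 18.9 (range 10.1 to 94.2) and retained sites 34.8, and the highest retained site reached 370.03. In the list named for both hormones the median percentile was 23.6 for absent and 53.8 for retained sites.

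**Figure D1:**
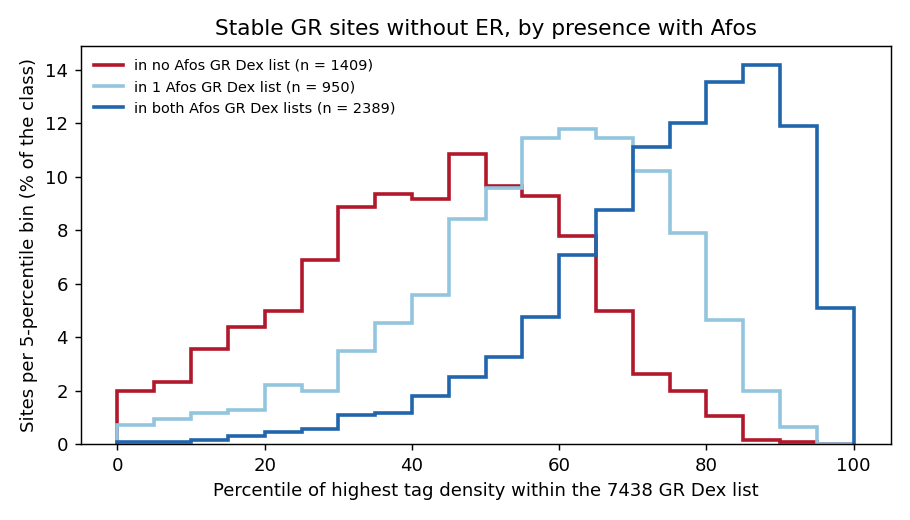
Distribution of stable GR sites without ER over the percentile of highest tag density in the 7438 GR dexamethasone list (horizontal), as percent of each class in bins of 5 percentiles (vertical), for sites in no, 1 or both Afos dexamethasone lists. The medians of the 3 classes are 44.2, 59.7 and 78.0.

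The share of sites missing with Afos was smaller in stronger bins of the 7438 list, among all dexamethasone GR sites as among those without ER. Among stable sites without ER, 75.3% (61 of 81) were absent in bin 1, the weakest of 10 equal bins of the dexamethasone list, and 76.7% (112 of 146) in bin 2. The share was 54.4% in bin 5, 23.1% in bin 7 and 0.242% (1 of 413) in bin 10, the strongest. Over all dexamethasone GR sites the shares were 73.2% in bin 1, 49.5% in bin 5, 25.6% in bin 7 and 0.165% in bin 10. Stable sites that met an ER site had 81.0% in bin 1, 60.3% in bin 5, 33.8% in bin 7 and 0.127% in bin 10.

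**Figure D2:**
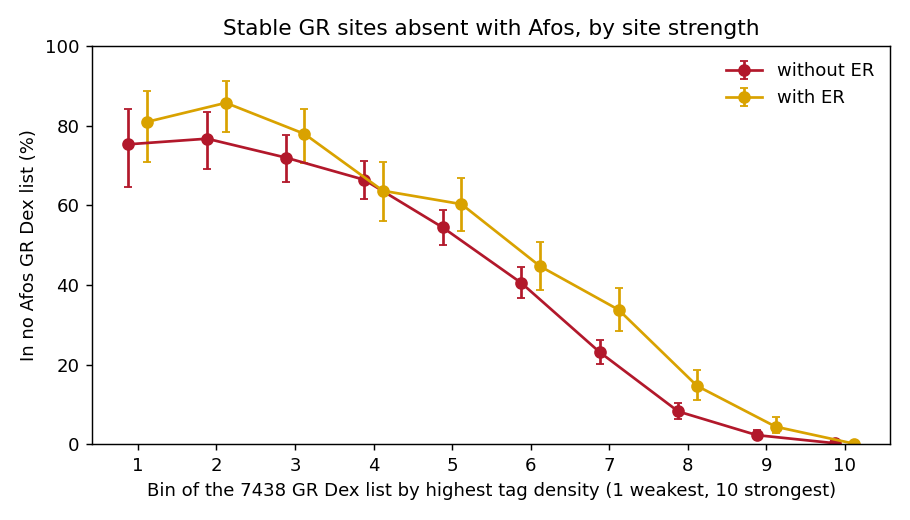
Share of stable GR sites missing from both Afos dexamethasone lists (percent, with 95% exact binomial intervals) in each of 10 equal bins of the 7438 GR dexamethasone list, weakest first, for sites without and with ER. Without ER it lies at 75.3% in the weakest bin and 0.242% in the strongest.

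Both GR lists of 7438 ranked the absent sites less alike than the retained sites. Spearman's rho between the 2 percentiles was 0.591 over the 1409 absent and 0.870 over the 3339 retained sites, a description in which the points share 2 libraries and the absent sites span a narrower range of strength. The median difference in percentile, the list named for both hormones minus dexamethasone, was -16.6 for absent and -14.9 for retained sites, and 13.4% of absent against 4.64% of retained sites ranked higher in the list named for both hormones. Over all 7699 sites in both lists the median difference was -8.23 and 19.95% ranked higher. The lists differ in length, so a difference in percentile is not a change in binding. Absent sites that met an ER site had a median difference of 3.66, and 57.6% of them ranked higher in the list named for both hormones.

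**Figure D3:**
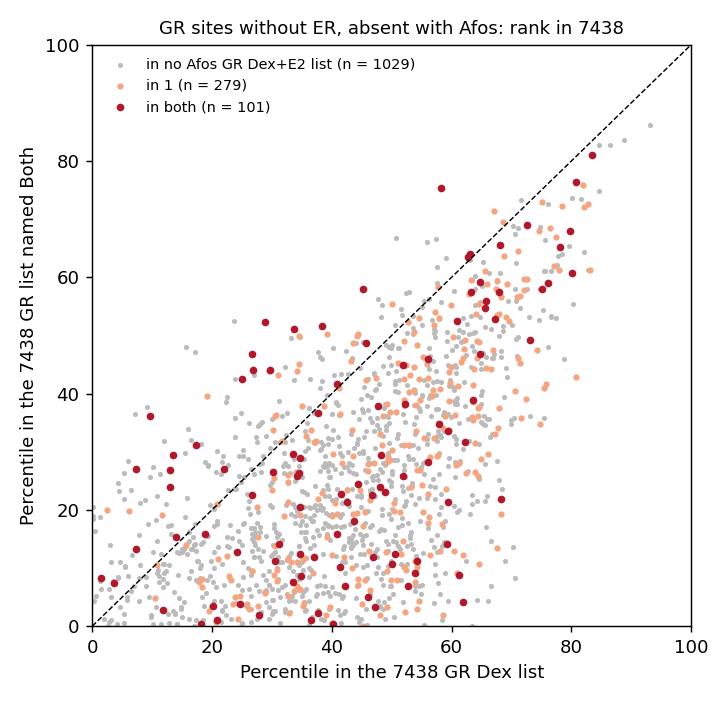
Percentile of highest tag density of each absent site without ER in the 7438 GR dexamethasone list (horizontal) and in the list named for both hormones (vertical), coloured by its presence in neither, 1 or both Afos GR lists with both hormones. Most points lie under the dashed line of equal rank, with 13.4% above it.

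Most sites missing with dexamethasone alone were also missing from 7438 Afos with dexamethasone plus estradiol, and 27.0% were called in at least 1 list. Replicate 1 held 173 of the 1409 (12.3%, 10.6 to 14.1%) and replicate 2 held 308 (21.9%, 19.7 to 24.1%), where the same lists held 60.5% and 62.2% of all dexamethasone GR sites. At least 1 list held 380 (24.7 to 29.4%) and both held 101 (7.17%, 5.88 to 8.64%), against 68.3% and 54.4% of all. All dexamethasone GR sites include those called in Afos with dexamethasone, which the rule left out. Of the 4777 missing from both Afos dexamethasone lists, 16.5% were in replicate 1 and 19.9% in replicate 2. At least 1 list held 26.2% of these 4777 and both held 10.2%, values nearer to those of the absent sites. The other 1029 of the 1409 (73.0%) were in neither. The 101 shared sites are 58.4% of those in replicate 1 and 32.8% of those in replicate 2. Replicate 2 held more absent sites although its list is the shorter, with 10309 against 14160 sites. The share rests on the dexamethasone libraries as well: with replicate 1 of both treatments left out it was 44.0%, and with replicate 2 left out 13.0%.

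Afos GR lists with estradiol alone or no hormone held few of the absent sites and few of all dexamethasone GR sites. Averaged over 2 lists, 17.1 ± 6.77% of the absent sites were called with dexamethasone plus estradiol, 0.0710 ± 0.100% with estradiol and 0.816 ± 0.954% in untreated 7438 Afos (SD, n = 2 lists each). Over all dexamethasone GR sites the averages were 61.4% with both hormones, 0.364% with estradiol and 1.20% untreated. The differences from untreated and from estradiol were 16.3 and 17.0 percentage points, and both lists with both hormones lay above both lists they were compared with. The exact two-sided permutation test gave p = 0.33 for each, the smallest value that 2 lists against 2 allow, so the design cannot reach 0.05. The difference from untreated was 89.2 points for retained sites and 60.2 for all dexamethasone GR sites. The same order of lists held over all dexamethasone GR sites, so it is not particular to absent sites. Lists with both hormones hold 14160 and 10309 sites, against 490 and 146 with estradiol and 95 and 315 untreated.

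Retained sites are in the Afos dexamethasone lists by choice, and 87.9% and 93.1% of them were in the 2 lists with both hormones. Absent sites that met an ER site were missing from Afos with dexamethasone in the same way, yet 37.3% and 45.1% of those 841 were in the 2 lists with both hormones. Absent sites without ER lay 25.1 and 23.2 percentage points below them in the 2 lists. Flipping the sign of the 2 differences gave an exact two-sided p of 0.5, the smallest that 2 lists allow.

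**Figure D4:**
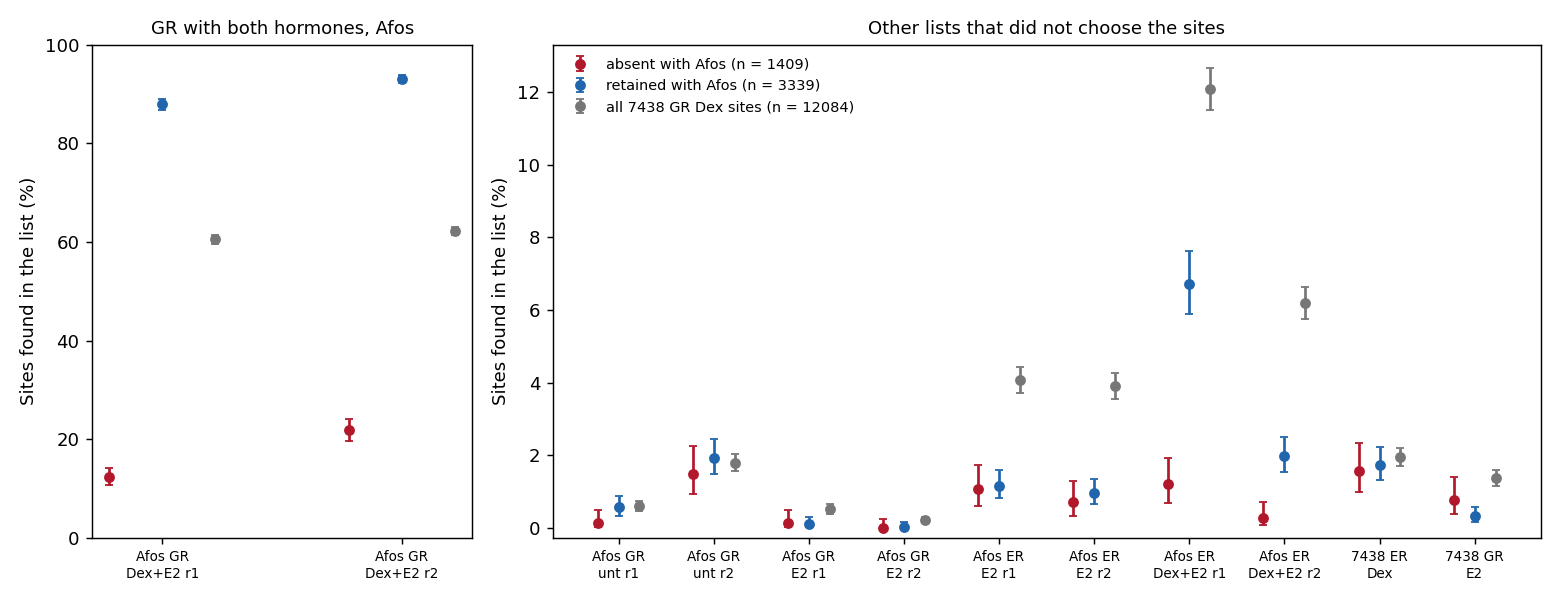
Percent of sites called in the 2 GR lists of 7438 Afos with dexamethasone plus estradiol (Dex+E2, left) and in 10 other lists (right, on another scale), with 95% exact binomial intervals that cover counting error only, for absent, retained and all dexamethasone GR sites. On the left absent sites lie at 12.3% and 21.9% and retained sites at 87.9% and 93.1%.

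The order of the 3 classes was the same in the 4 weaker of 5 equal bins of the dexamethasone list. In replicate 1 the share of absent sites without ER was 10.4%, 12.5%, 10.6% and 15.9% in these 4 bins, weakest first, and in replicate 2 it was 10.98%, 16.5%, 23.9% and 33.5%. Absent sites with ER had shares of 39.8%, 33.6%, 41.3% and 33.5% in these bins of replicate 1, and replicate 2 held 43.8%, 37.9%, 44.9% and 55.7% of them. The strongest bin held 18 absent sites without ER, at 27.8% and 33.3%, with intervals that overlap those of the sites with ER. Shares were also weighted to the dexamethasone strength of the 1391 absent sites without ER in the 4 weaker bins. In replicates 1 and 2 they were 12.1% and 21.7% for absent sites without ER and 37.4% and 44.5% for those with ER. For retained sites they were 79.2% and 86.1%. Strength in the list named for both hormones was not weighted. In that list absent sites with ER had a median percentile of 48.1, against 23.6 for those without.

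**Figure D5:**
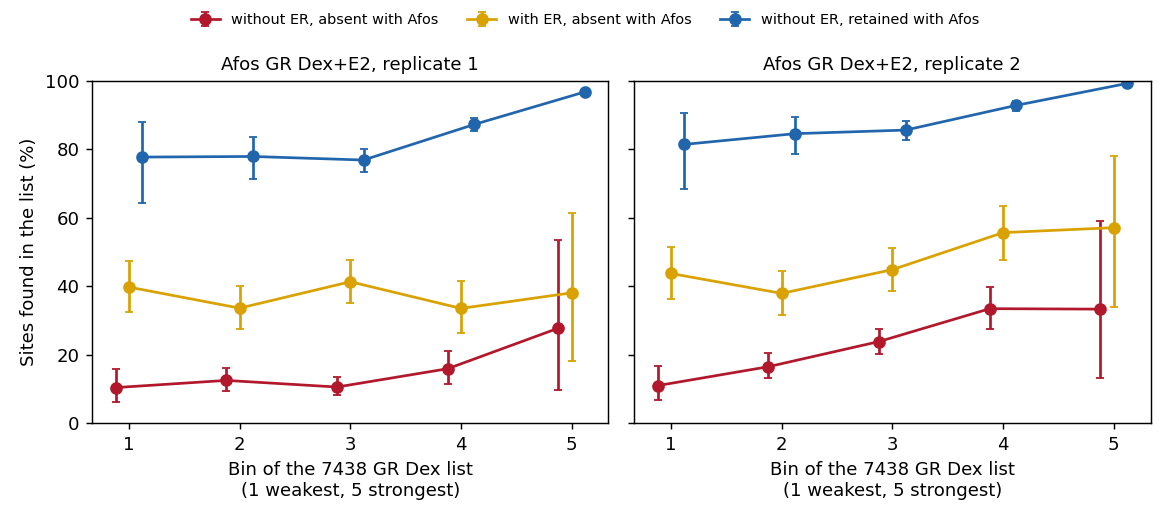
Share of sites called in each of the 2 GR lists of 7438 Afos with dexamethasone plus estradiol (percent, with 95% exact binomial intervals), in 5 equal bins of the 7438 GR dexamethasone list, weakest first. In the 4 weaker bins absent sites without ER lie at 10.4 to 15.9% in replicate 1 and 10.98 to 33.5% in replicate 2, under absent sites with ER and retained sites.

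The calls at absent sites in Afos cells with both hormones were mostly weak ones. The Afos GR sites with both hormones that held an absent site had a median percentile of 32.6 in replicate 1 (173 sites) and 26.9 in replicate 2 (306 sites), with median tag densities of 11.5 and 11.1. Those that held retained sites had median percentiles of 69.4 and 66.2 and tag densities of 22.03 and 20.6. When each list with both hormones was cut to the length of the dexamethasone list of its replicate number, keeping the sites of highest tag density, 76 (5.39%) and 33 (2.34%) absent sites were left and 93 (6.60%, 5.36 to 8.03%) were in at least 1. The cut lists held 48.0% and 38.8% of all dexamethasone GR sites, and 50.8% were in at least 1. Of retained sites 78.1%, and of absent sites with ER 29.5%, were in at least 1 cut list.

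ER calls in 7438 Afos are given for absent sites in both, 1 or neither of the Afos GR lists with both hormones, with no test. ER sites of 7438 Afos with estradiol or both hormones held 17 of the 101 absent sites that were in both GR lists (16.8%, 10.1 to 25.6%), 4 of the 279 in 1 list (1.43%) and 2 of the 1029 in neither (0.194%). Over all absent sites the share was 1.63% (23 sites, 1.04 to 2.44%), against 7.16% (239) of retained sites, and 13.1% of all dexamethasone GR sites were called, a share inside the interval of the 101. Of absent sites with ER in 7438 it was 25.7%. By list, Afos ER held 15 (1.06%) and 10 (0.710%) absent sites with estradiol, where 4.06% and 3.9% of all were called, and 17 (1.21%) and 4 (0.284%) with both hormones, where 12.1% and 6.18% of all were called. An ER site of 7438 (estradiol list or list named for both hormones) lay within 1 kb, without overlap, at 21.8% of the 101, 10.4% of the 279 and 8.94% of the 1029. The share was 9.70% of retained sites and, overlapping sites included, 31.8% of all dexamethasone GR sites. The sites in both lists were not the strongest in 7438: their median percentile with dexamethasone was 44.4, against 52.1 for those in 1 list and 41.8 for those in neither.

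Of the sites named by rule, 3 had both receptors called in Afos cells. At chr1:185397654-185397804 tag density was 49.5 and 27.3 in the 2 Afos GR lists with both hormones and 35.8 in replicate 1 with estradiol alone. In 7438 it was 24.5 with dexamethasone and 31.2 in the list named for both hormones. All 4 Afos ER lists with estradiol or both hormones held this site, and an ER site of 7438 lay 277 bp away. At chr4:128658438-128658588 the Afos GR values were 34.8 and 18.5 with both hormones and 12.2 in replicate 1 with estradiol alone. That site too was in all 4 of those ER lists, with an ER site of 7438 at 121 bp. At chr15:97559297-97559447 the Afos GR values were 33.2 and 25.9 with both hormones, and replicate 1 of the Afos ER lists with both hormones held it.

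Lists of GR without dexamethasone and of ER with dexamethasone held few of the absent sites and few of all dexamethasone GR sites. ER with dexamethasone in 7438 was called at 22 absent sites (1.56%, 0.981 to 2.35%), against 58 retained sites (1.74%) and 1.94% of all dexamethasone GR sites. A GR list without dexamethasone, of either cell line, held 41 (2.91%), against 3.59% of all. In 7438 the estradiol GR list held 11 (0.781%, against 1.37% of all), the GR list named untreated 15 (1.06%, against 1.12%) and the ER list named untreated 13 (0.923%, against 1.85%). Untreated GR lists of 7438 Afos held 2 (0.142%) and 21 (1.49%), where 0.604% and 1.8% of all were called, and the estradiol GR lists held 2 (0.142%) and 0, where 0.513% and 0.215% of all were called. A count of 0 allows a share of up to 0.213%. None was in the Afos ER lists without hormone, where 0.0% and 0.00828% of all were called, or with dexamethasone, where 0.0248% and 0.0414% of all were called. Beyond the lists that chose the sites and the Afos GR lists with both hormones, no list held 1318 of the absent sites (93.5%), against 2969 retained sites (88.9%) and 9945 (82.3%) of all dexamethasone GR sites.

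Afos GR lists with both hormones held 15 of the 41 absent sites that were also in a GR list without dexamethasone (36.6%, 22.1 to 53.1%) and 365 of the other 1368 (26.7%, 24.4 to 29.1%), and these intervals overlap.

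Distances to the nearest Afos dexamethasone site are partly set by the choice of sites that overlap none. For absent sites without ER the median was 20972 bp; 904 (64.2%) had none within 10 kb, while 112 (7.95%) had one within 1 kb and 52 within 500 bp. The values were near these for all 4777 dexamethasone GR sites missing from both Afos dexamethasone lists, with a median of 25788 bp, 69.2% with none within 10 kb and 7.49% with one within 1 kb. Over all 12084, overlapping sites included, 27.4% had none within 10 kb and 63.4% had one within 1 kb. At the edge of the rule, the 3 nearest absent sites lay 12, 13 and 50 bp from an Afos dexamethasone site, and the 3 retained sites of smallest overlap shared 6, 19 and 29 bp with one. The nearest absent site, chr5:32338231-32338381, had 7438 tag densities of 19.5 with dexamethasone and 10.5 in the list named for both hormones. It lay 7 bp from an ER site of 7438 and was called in both Afos GR lists with both hormones, at 13.1 and 18.1. The retained site with the smallest overlap, chr2:170210506-170210656, had 21.96 and 14.1 in 7438 and was called in replicate 1 of Afos with dexamethasone at 8.89.

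The median distance to the next dexamethasone GR site of 7438 was 9070 bp for absent and 12198 bp for retained sites, against 12371 bp for all. Absent sites that met an ER site had a median of 8740 bp, so the shorter distance is not particular to those without ER. Shares with a next site within 1 kb were alike, at 13.7% of absent, 14.5% of retained and 14.4% of all sites. For absent sites with ER the share was 14.0%. The median distance to the nearest ER site of 7438 was 16285 bp for absent and 25251 bp for retained sites, both without ER by choice, and 10756.5 bp for all.

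Absent sites were found on all 20 chromosomes of the list. Their share of stable sites without ER ran from 13.6% on the X chromosome (9 of 66, 6.43 to 24.3%) to 37.6% on chromosome 15 (100 of 266, 31.8 to 43.7%). On 17 of the 20 chromosomes the interval held the genome-wide share of 29.7%. The exceptions were these 2 and chromosome 3, at 35.9% (30.1 to 42.1%). Stable sites without ER on chromosome 15 and X were of like strength in the dexamethasone list, with median percentiles of 59.6 and 59.9, and those on chromosome 3 had 64.1. Genes, sequences and motifs at these sites are not given, since no mm9 genome or annotation was used here.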

How the data were processed

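Lists of called sites came with 24 of the 39 samples, 8 of them 7438 and 16 of them 7438 Afos; 15 samples were not analysed here. Per the submitters' processing notes, the genome build was mm9 and CASAVA 1.8 was used. Which aligner, site caller, control and threshold made the lists is not given in the sources used here. Per the file headers, sites have 2 tag densities (highest and average), which are the authors' signal, and a z-score, which is the authors' score. A p-value deposited for 7438 Afos sites was not used. Per the values in the files, 7438 sites are 150 bp wide with tag densities from 10 and z-scores from 15 upward. The 7438 Afos sites are wider. In the 2 Afos dexamethasone GR lists, tag densities start at 1.41 and 1.42 and z-scores at 11.2 and 11.3. The 2 lines' lists were thus made differently. The scaling of tag density is not stated, so it was ranked within its own list.

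Overlap meant at least 1 shared bp. Coordinates are printed as deposited, and the files do not say whether they count from 0 or 1. Shares have 95% exact (Clopper-Pearson) binomial intervals; intervals and the limit for 0 (3 counts) cover counting error only, and sites are not replicates. Lists were the unit of every test: an exact two-sided permutation test of 2 lists against 2, or an exact sign-flip test of the differences within 2 lists or 2 same-numbered pairs. Overlap calls were tested on simulated data, where 200 of 200 planted overlaps were found and 0 were wrong. The planted sites were shifted copies of 7438 sites. Expected overlaps came from the same formula, so the test checks the code and not the counting of coordinates. Named sites are the 10 strongest absent sites by mean percentile, the 5 strongest in both and in neither Afos list with both hormones, the 3 nearest on each side of the Afos rule and up to 5 also called without dexamethasone; some are described by counts only. Members, lists and tests were chosen with earlier results of these data known. Python 3.11.15, NumPy 2.4.6, pandas 2.3.3, SciPy 1.17.1 and matplotlib 3.10.9 were used.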

Additional observations from a re-analysis of the deposited data

How the results depend on the processing

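Of 78 recomputed values, 49 were counted as the same and 29 as moved, and none reversed. With 2 lists against 2, a difference that kept its sign counted as moved only if it became 0. Other changes in its size counted as the same. A number of sites counted as the same if it changed by no more than 1.5-fold. Requiring 75 shared bp in every step of the choice left 1474 absent sites, which may share fewer bp with a 7438 ER or Afos dexamethasone site. Of these, 0.746% were in the 7438 ER dexamethasone list and 3.12% in the Afos ER lists, counted at the same 75 bp. A tag density of at least 20 in both 7438 GR lists left 99 absent sites, 45.5% of them in an Afos GR list with both hormones and 3.03% in an Afos ER list, at median percentiles of 70.7 and 61.7. Choosing by the labels left 16 sites, with 31.2% in an Afos GR list with both hormones, a difference of 0 from untreated, 6.25% in the 7438 ER dexamethasone list, 0% in the Afos ER lists, and median percentiles of 51.6 and 39.2. Cutting the Afos lists with both hormones to the length of the dexamethasone lists gave 6.60%. The differences were then 3.05 points from untreated and 3.80 from estradiol, against 16.3 and 17.0 with full lists. With a tag density of at least 20 they were 29.8 and 30.3 points. Only ER dexamethasone sites of density at least 20 gave 0.639%. Ranking by average density gave a median percentile of 26.7 in the list named for both hormones, and ranking by z-score 46.0 and 26.1. After the data were seen, 2 alternatives that moved a value were added. With the lower limits of 7438 on the Afos GR lists, the absent sites numbered 1926, and 18.8% of these were in a list with both hormones. With no 7438 ER site within 500 bp, 0.605% were in an Afos ER list. The cause of these moves was not tested.

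Leaving out replicate 1 or 2 of 7438 Afos gave 1450 to 2318 absent sites, 13.0 to 44.0% in the GR list with both hormones, differences of 12.9 to 41.8 points from untreated and 12.8 to 44.0 from estradiol, 1.66 to 1.77% in the 7438 ER dexamethasone list, 0.992 to 1.59% in the Afos ER lists, and median percentiles of 44.7 to 50.04 and 24.2 to 28.0. With replicate number as a block the differences were 16.3 and 17.0 points again, with p = 0.5 by the exact sign-flip test, the smallest possible. Deviations of same-numbered Afos GR lists with both hormones were correlated with those of the untreated (0.0573), estradiol (0.00982) and dexamethasone (0.0364) lists. Untreated and estradiol lists held so few dexamethasone GR sites that the first 2 values cannot show whether the numbers pair the libraries. The numbers were not taken to pair them. The motif alternative was not run, since no mm9 genome was used here.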

Other observations

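GR sites called with dexamethasone, missing from the list named for both hormones, without ER and missing from both Afos dexamethasone lists numbered 2418. Weighted to the strength of the absent stable sites in the 4 weaker of 5 bins, 21.7% of the stable absent sites were in replicate 2 of Afos GR with both hormones, against 14.1% of these 2418. In replicate 1 the weighted shares were 12.1% for the stable absent sites and 12.9% for the 2418. Bin 4 held 245 stable absent sites but only 27 of the 2418, so the weighted shares of the latter lean on few sites. In replicate 2, 6 of those 27 were called (22.2%, 8.62 to 42.3%). These are values over sites of 2 lists, with no test.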
